A study of Mus musculus with 16 samples.

Results

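Subcutaneous fat of the groin (inguinal white adipose tissue) was compared between C57BL6/J mice on a high-fat diet and C57BL6/J mice on a control diet, none of which had received antibody. The comparison uses 8 of the 16 libraries of the series, taken as those labelled as not treated with the anti-PDGFcc antibody: 4 of control-diet mice and 4 of high-fat mice. The other 8 libraries, 4 on each diet, came from mice of the same strain given the antibody AF1447 against PDGFcc, a ligand of platelet-derived growth factor receptors, at 50 mg/kg intraperitoneally every 2 days over 2 weeks, starting at 6 weeks of age. The antibody libraries entered the fit as groups of their own, and their diet difference is set beside the untreated one as a second set of samples. The age and sex of the untreated mice, any mock injection, the composition and duration of the diets and the hour of collection are unstated in the sources used here. They also leave unsaid whether each library stands for a separate animal. The p-values therefore measure the spread between these libraries, which may be technical in part. Poly-A RNA was sequenced, and each value below is a normalized count from the deposited table. Whenever 4 values are listed they follow the replicate numbers 1 to 4.

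White fat stores energy as triglyceride and makes part of its fatty acids itself. Sugar taken up by the adipocyte is broken down to pyruvate, enters mitochondria and leaves as citrate. Acly, Acaca and Fasn build it into palmitate with NADPH from the pentose phosphate pathway and malic enzyme. The transcription factors SREBP-1c and ChREBP drive this program. Around the adipocytes lies a collagen matrix laid down mainly by fibroblast-like progenitors, which also divide to give new adipocytes, and between them are endothelial cells, pericytes and macrophages. A bulk library sums all of these cells, so fewer cells of a type and less RNA per cell cannot be told apart in any result below.

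A gene is said to have risen or fallen where it passed an adjusted p of 0.05 for the diet difference in a limma fit to log2(value + 1) of all 16 libraries, with Benjamini-Hochberg adjustment over 14189 genes. All differences are high-fat minus control diet on that log2 scale, with the standard error of the fit. Without antibody 1157 genes passed (8.15% of those tested), 423 higher (2.98%) and 734 lower (5.17%). The 4 high-fat libraries lay wholly above the 4 control-diet libraries for 4.54% of tested genes and wholly below them for 5.19%, and the high-fat group mean was the lower one for 46.9% of tested genes. These shares are the background for the gene lists, and the median difference over all genes tested was 0.02. With the spread estimated from the 8 untreated libraries alone 0 genes passed, and 21.8% had an unadjusted p under 0.05 by limma (9.81% higher, 12% lower), so the calls rest in part on a spread estimated from the antibody libraries. The count was also 0 without control-diet replicate 4, without high-fat replicate 4 and without control-diet replicate 3 together with high-fat replicate 2. It was 4544 without replicate 1 of both diets.

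Several libraries stood apart from their group. Across genes, log2 values of control-diet replicate 1 correlated at a mean r of 0.9638 with the other control-diet libraries and 0.9791 with the high-fat libraries, while high-fat replicate 1 correlated at 0.9765 with control-diet and 0.9681 with the other high-fat libraries. Both libraries numbered 1 thus resembled the other diet more than their own. Fits without them drop the libraries most like the other diet, so the calls gained in those fits give no support. High-fat replicate 2 carried skeletal muscle RNA: the summed level of 17 muscle genes was 708800 there and between 1417 and 46260 in the other 7 libraries. Adipoq, the adiponectin gene of mature adipocytes, was at 80260 to 95800 in all 8 libraries. The principal component with the most variance took 53.99% of it and the next 18.73%. Column totals were 24.02 to 28.15 in units of 1e6 normalized counts, and the read depth behind them is unknown. The annotation (GENCODE vM21, GRCm38) gives 31 of the genes named here exon sequence in common with another tested gene running the opposite way, among them Mest with Copg2, Tagln with Pcsk7, Kif20a with Cdc23 and Tmem79 with Glmp, and Tm7sf2 shares exon sequence with Vps51 on its own strand. Whether the counting used strand is not stated, so these values are uncertain.

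**Figure D1:**
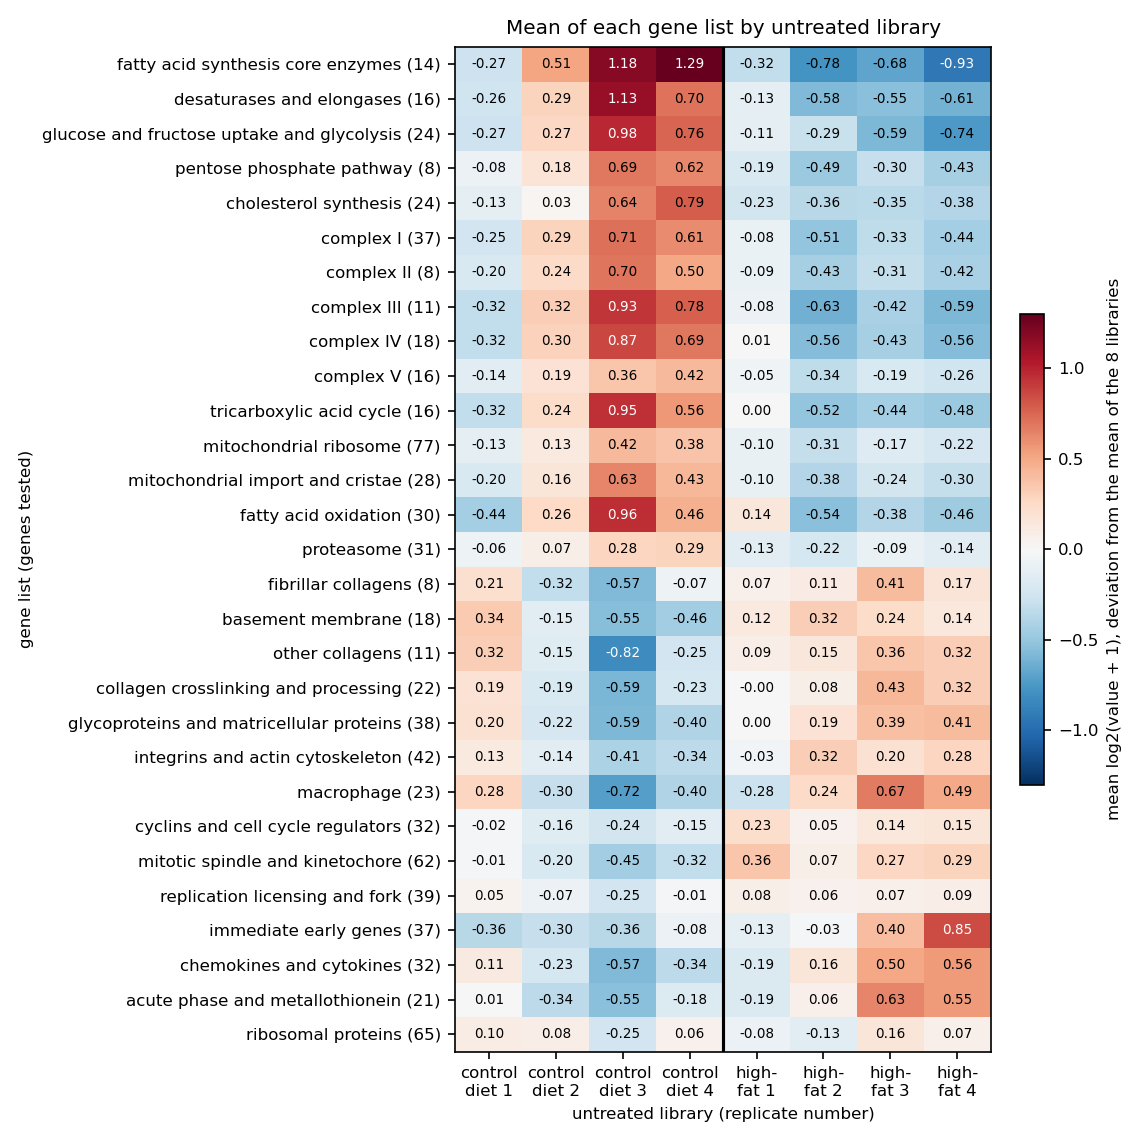
Rows are gene lists with the number of genes tested, columns are the 8 untreated libraries, and each cell is the mean log2(value + 1) of the list as a deviation from the mean of the 8 libraries, on a colour scale from blue (low) to red (high). Most lipid-building and mitochondrial lists are highest in control-diet replicates 3 and 4, and in most of these lists control-diet replicate 1 lies near the high-fat libraries.

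Promoter windows of 4 genes from the groups described below are shown because many genes of their groups hold a short motif near the start: CCAAT, the box bound by NF-Y, in lipid-building genes, and TTTGAA, the core of the cell cycle homology region, in mitotic genes. The windows run from 250 bases before to 50 bases after the RefSeq start on GRCm38.p6, are read 5′ to 3′ on the gene's strand, and have each match to the motifs in capitals, with CCAAT also marked as ATTGG and TTTGAA as TTCAAA where they lie on the opposite strand. Fasn and Nsdhl stand for fatty acid and cholesterol synthesis (CCAAT marked), and Mki67 and Kif23 for dividing cells (CCAAT and TTTGAA marked).
Fasn (chr11:120824498-120824797, minus strand): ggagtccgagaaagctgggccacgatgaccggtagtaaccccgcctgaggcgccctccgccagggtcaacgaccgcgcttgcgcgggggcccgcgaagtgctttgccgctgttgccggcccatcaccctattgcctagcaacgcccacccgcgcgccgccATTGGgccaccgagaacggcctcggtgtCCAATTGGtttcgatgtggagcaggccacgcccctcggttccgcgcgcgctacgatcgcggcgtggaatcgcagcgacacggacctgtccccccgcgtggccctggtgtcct
Nsdhl (chrX:72918271-72918570, plus strand): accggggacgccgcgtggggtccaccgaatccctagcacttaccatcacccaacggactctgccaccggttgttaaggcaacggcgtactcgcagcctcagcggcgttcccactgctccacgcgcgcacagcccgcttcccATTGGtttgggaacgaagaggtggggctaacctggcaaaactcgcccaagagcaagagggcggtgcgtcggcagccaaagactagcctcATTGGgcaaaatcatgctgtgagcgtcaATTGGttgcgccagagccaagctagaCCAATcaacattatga
Mki67 (chr7:135716330-135716629, minus strand): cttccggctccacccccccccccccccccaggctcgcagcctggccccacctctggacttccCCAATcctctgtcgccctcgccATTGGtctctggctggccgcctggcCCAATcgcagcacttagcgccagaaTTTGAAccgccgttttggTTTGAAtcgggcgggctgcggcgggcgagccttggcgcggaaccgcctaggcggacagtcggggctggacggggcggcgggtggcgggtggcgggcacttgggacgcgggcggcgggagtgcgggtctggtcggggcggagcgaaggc
Kif23 (chr9:61946750-61947049, minus strand): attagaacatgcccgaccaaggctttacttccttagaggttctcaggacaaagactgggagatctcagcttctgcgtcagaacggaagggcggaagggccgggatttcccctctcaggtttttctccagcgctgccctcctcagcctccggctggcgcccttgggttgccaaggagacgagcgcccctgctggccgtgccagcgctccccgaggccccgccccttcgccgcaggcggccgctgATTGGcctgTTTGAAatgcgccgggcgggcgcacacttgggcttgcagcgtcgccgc
A window was found for 10736 tested genes, and 42.7% of these held CCAAT on either strand. It was present for 10 of 14 genes of fatty acid synthesis with a window (71.4%), 16 of 17 of cholesterol synthesis (94.1%), 37 of 55 of the mitotic spindle (67.3%) and 30 of 78 of respiratory complexes I to V (38.5%). The Fasn window holds 3 matches, of which CCAAT and ATTGG overlap at one place, and the Nsdhl window holds 4. TTTGAA was found in 14.5% of the tested genes with a window and in 37 of 55 mitotic spindle genes (67.3%), against 6 of 32 replication genes (18.8%). The sterol response element was searched as TCACNCCAC on both strands, and it was present in 1 of 14 and 1 of 17 genes of fatty acid and cholesterol synthesis against 1.33% of tested genes with a window. These are matches of letters within a fixed window and were not tested.

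Genes that build fatty acids were lower on the high-fat diet, and the enzymes of the pathway itself were among the largest falls. Of 14 measured genes of fatty acid synthesis all 14 had the lower mean on the high-fat diet, 7 fell (50% against 5.17% of all genes tested), and 8 had groups that did not overlap. The list median was -1.33. Acss2, which activates acetate to acetyl-CoA (GRCm38 chromosome 2, 155517948 to 155585724), measured 10100, 15680, 22410 and 26680 normalized counts on control and 5853, 4242, 4342 and 2601 on high-fat diet. The groups did not overlap, and replicate 1 lay nearest the other diet in both, with a difference of -2.10 ± 0.32, adjusted p = 0.0136, limma. Acly, the enzyme that splits citrate, measured 25480, 60660, 117400 and 125800 on the control diet against 15690, 12450, 11200 and 6912. Fasn, the fatty acid synthase, was at 278900, 470500, 837200 and 752900 on control and 196700, 101000, 95630 and 64050 on high-fat diet. In both genes control-diet replicate 1 was the lowest of its group and high-fat replicate 1 the highest, and the groups still did not overlap (differences -2.64 ± 0.44 and -2.35 ± 0.40, adjusted p = 0.0136 each). The same held for the malic enzyme gene Me1 (-1.98 ± 0.33), for Acaca, whose product makes malonyl-CoA (-1.97 ± 0.37), for the citrate carrier Slc25a1 (-1.79 ± 0.34) and for Thrsp, which is tied to lipogenic induction (-1.53 ± 0.28), at adjusted p of 0.0136 to 0.0167. The 7 members that did not pass include the regulators Srebf1 at -0.71 ± 0.26, adjusted p = 0.0865 and Mlxipl, the gene of ChREBP, at -0.69 ± 0.27, adjusted p = 0.107.

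Desaturases and elongases, which shape the fatty acids made, were lower in 12 of 16 genes, and 4 fell (median -0.74). Of these 4, Elovl6, the elongase that acts on palmitate, fell the most. The lowest difference of the list, -4.22, belonged to a gene that did not pass. Elovl6 measured 4814, 14120, 40890 and 31650 on control and 4315, 1093, 1235 and 812 on high-fat diet, a difference of -3.54 ± 0.64, adjusted p = 0.0149. High-fat replicate 1 came close to control-diet replicate 1, and the other 3 high-fat libraries lay far below. Scd2 (-1.40 ± 0.34), Fads2 (-0.96 ± 0.14) and Tecr (-0.87 ± 0.18) fell as well. Scd1, the main stearoyl-CoA desaturase of fat, had groups that did not overlap, at 1152000 to 2561000 and 737700 to 901700, and did not pass (-1.10 ± 0.39, adjusted p = 0.0779). Fads3 went the other way, at 6640 to 8602 on control and 10120 to 12270 on high-fat diet, again without overlap and without passing (0.61 ± 0.18, adjusted p = 0.0519).

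The supply of carbon and reducing power to this pathway was lower too. Of 24 genes of sugar uptake and glycolysis 9 fell, with a median of -0.74. The glucose transporter gene Slc2a3 is not in this list. It rose by 1.58 and is described below. Slc2a5, the fructose transporter, measured 175, 602, 1097 and 1410 on control and 127, 19.7, 26.4 and 3.25 on high-fat diet. Control-diet replicate 1 was the only control-diet library near the high-fat level, and the groups did not overlap (-4.76 ± 0.88, adjusted p = 0.0149). High-fat values of 19.7 and 3.25 lay below 24.49, the low-value limit for testing a gene. The size of the Slc2a5 difference is thus uncertain, and it ran from -6.19 to -2.49 over the alternative fits. Slc2a4, the insulin-regulated glucose transporter, was at 6966, 8244, 12740 and 11530 against 6293, 6257, 4504 and 5630 (-0.77 ± 0.16, adjusted p = 0.0242). Khk, the fructokinase, fell by a smaller amount with little spread, from 400.8 to 503.6 in the control-diet libraries to 322.1 to 367.7 in the high-fat libraries (-0.45 ± 0.10, adjusted p = 0.0286). In the pyruvate dehydrogenase genes Pdhb (-1.44 ± 0.31) and Pdha1 (-1.21 ± 0.28) and the enolase Eno1 (-1.44 ± 0.32) the 2 replicates numbered 1 overlapped, and the other 6 libraries were apart. Of 8 pentose phosphate genes 4 fell, led by the transketolase Tkt (32900, 59520, 92320 and 98650 against 28770, 13290, 16530 and 13030, -1.94 ± 0.36) and by Pgd, which makes NADPH (-0.99 ± 0.22). Glycogen genes fell in 4 of 14. They were the phosphorylase Pygl (-1.38 ± 0.25), the branching enzyme Gbe1 (-1.21 ± 0.23), the glycogenin Gyg (-0.68 ± 0.18) and Ppp1r3b, which brings a phosphatase to glycogen (-2.70 ± 0.72). Ppp1r3b ranged over 413.9 to 8684 on control and 259.5 to 661.6 on high-fat diet, and only control-diet replicate 1 lay within the high-fat range.

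The last steps of fat storage gave smaller median differences. Of 14 triglyceride synthesis genes 4 fell and 1 rose (median -0.34). Agpat2 (-1.25 ± 0.31), Gpam (-0.88 ± 0.23) and Dgat1 (-0.55 ± 0.14), which add acyl chains to glycerol, fell, and in each the groups overlapped and control-diet replicate 1 was the lowest of its group. Dgat2 was at 41910, 38000, 47120 and 46520 on control and 37290, 30390, 20310 and 22990 on high-fat diet, without overlap (-0.68 ± 0.18, adjusted p = 0.0413). The phosphatidate phosphatase Lpin3 rose (0.53 ± 0.15, adjusted p = 0.0447). None of 14 lipid droplet genes passed by limma, and their differences ran from -3.41 to 1.68 with a median of -0.22. In the 8 untreated libraries alone 4 of them had an unadjusted p under 0.05 by limma, 1 of them higher. The droplet protein Plin4 was higher without overlap at 0.56 ± 0.17, adjusted p = 0.0572. Of 16 lipolysis genes only Prkaca, the catalytic subunit of protein kinase A, fell (6.25% against 5.17% of all genes). It measured 5853, 6791, 8295 and 7831 against 5613, 4392, 4135 and 4158, with the groups apart (-0.65 ± 0.11, adjusted p = 0.0136).

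Cholesterol synthesis, which shares its acetyl-CoA source and its SREBP regulators with fatty acid synthesis, was lower in 23 of 24 genes. In this list 9 genes fell (37.5%), 10 had groups that did not overlap, and the median was -0.73. Fdps, which makes farnesyl diphosphate, measured 200.3, 285, 324 and 411 on control and 109, 131, 137 and 126 on high-fat diet. Its high-fat libraries were close together, replicate 1 was the lowest of them, and the groups did not overlap (-1.23 ± 0.20, adjusted p = 0.0136). Nsdhl, a sterol dehydrogenase, was at 1483, 1654, 2425 and 2564 against 1105, 913, 936 and 714 (-1.12 ± 0.19, adjusted p = 0.0136). Pmvk (-1.18 ± 0.21), Sqle (-1.15 ± 0.25), Lss (-1.14 ± 0.28), Idi1 (-1.07 ± 0.25), Dhcr7 (-1.03 ± 0.21), Fdft1 (-0.77 ± 0.17) and Tm7sf2 (-0.58 ± 0.15) make up the rest of the 9.

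**Figure D2:**
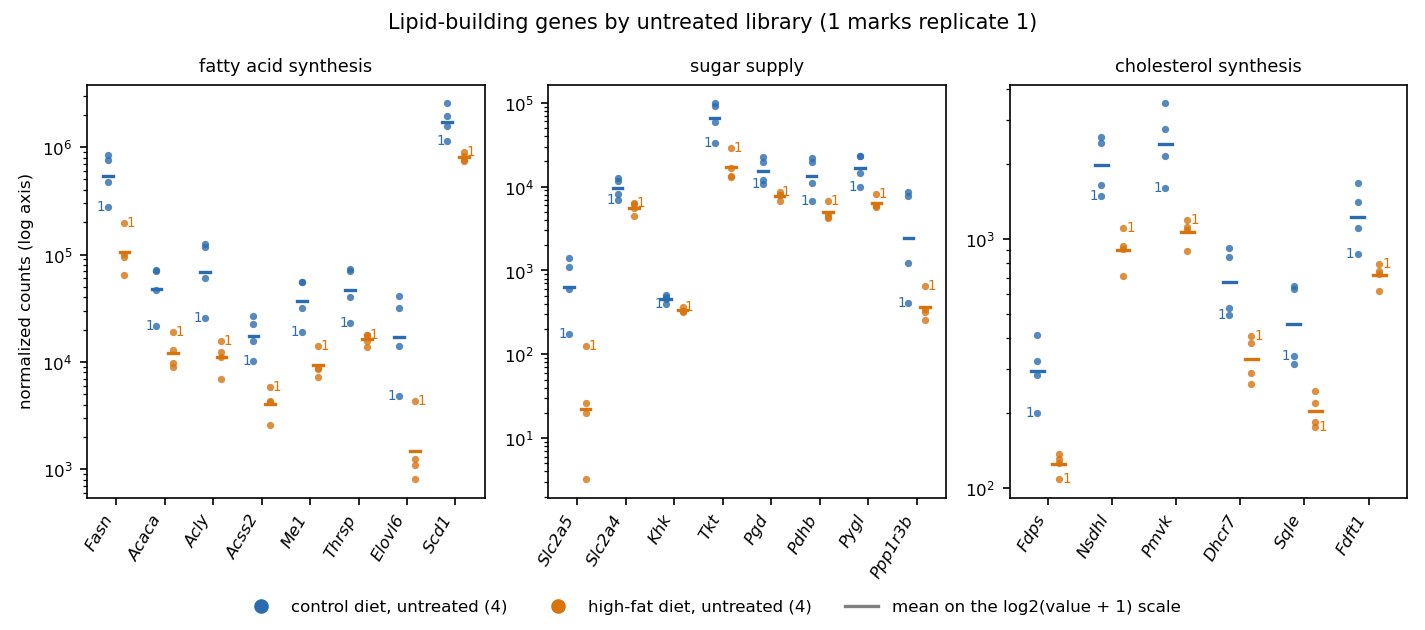
Normalized counts on a log axis for fatty acid synthesis, sugar supply and cholesterol synthesis genes in the 4 control-diet (blue) and 4 high-fat (orange) untreated libraries, with a bar at the mean on the log2(value + 1) scale and replicate 1 of each diet marked 1. Replicate 1 is the lowest control-diet and the highest high-fat point in most of these genes, and Fasn, Acss2 and Fdps show no overlap between the diets.

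Control-diet replicate 1 was the lowest control-diet library in all 14 genes of fatty acid synthesis and high-fat replicate 1 the highest high-fat library in 11, and high-fat replicate 1 exceeded control-diet replicate 1 in 5. Without both libraries 12 of the 14 genes fell and the median was -1.91. Without control-diet replicate 3 and high-fat replicate 2 together 0 of the 14 fell and the median was -0.97. For cholesterol synthesis the same 2 settings gave 14 falls with a median of -0.89 and 0 falls with a median of -0.52. With the muscle score as a covariate 7 fatty acid and 3 cholesterol genes fell.

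In the antibody libraries, which share no sample with this contrast, the same diets gave a median difference of -1.07 for fatty acid synthesis with 14 of 14 genes lower, -0.78 for sugar uptake and glycolysis and -0.29 for cholesterol synthesis. There 1 gene of all tested fell (0.00705%) and 0 rose by limma; the gene is Orm3, described below. Fasn differed by -1.71 ± 0.40, Acly by -2.12 ± 0.44 and Slc2a5 by -2.85 ± 0.88 in those libraries, each with groups that did not overlap. The interaction of diet and antibody passed for 0 genes, with 6.18% at an unadjusted p under 0.05.

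Mitochondrial genes fell in large numbers. Mitochondria burn pyruvate and fatty acids through the citric acid cycle and pass electrons along complexes I to IV, and complex V makes ATP. Of 90 nuclear genes of complexes I to V 88 had the lower mean on the high-fat diet and 57 fell (63.3% against 5.17% of all genes), with a median of -0.69 and a range from -1.80 to 0.40. By complex, 28 of 37 genes fell in the NADH dehydrogenase (median -0.69), 5 of 8 in the succinate dehydrogenase (-0.62), 9 of 11 in complex III (-0.84), 8 of 18 in cytochrome c oxidase (-0.70) and 7 of 16 in the ATP synthase (-0.49). The 37 genes of complex I lay between -0.87 and -0.43. Only 8 of the 90 had groups that did not overlap, against 5.19% of all genes.

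Ndufs5, a small subunit of complex I (GRCm38 chromosome 4, 123712710 to 123718202), measured 555, 761, 908 and 891 on control and 547, 418, 435 and 454 on high-fat diet. Control-diet replicate 1 and high-fat replicate 1 nearly met, and the groups did not overlap (-0.73 ± 0.15, adjusted p = 0.0242). Sdhaf4, an assembly factor of succinate dehydrogenase, was at 401, 409.7, 517 and 462 against 339, 259.8, 304 and 263, also without overlap (-0.62 ± 0.12, adjusted p = 0.0182). In Cox5a, a core-associated subunit of cytochrome c oxidase, high-fat replicate 1 exceeded control-diet replicate 1 and the other libraries were apart: 2610, 4328, 6710 and 6334 on control and 3004, 2004, 2214 and 2092 on high-fat diet (-1.03 ± 0.27, adjusted p = 0.0382). The replicates numbered 1 took these places in most genes of the list. Control-diet replicate 1 was the lowest control-diet library in 87 of the 90 genes, high-fat replicate 1 the highest high-fat library in 86, and high-fat replicate 1 lay above control-diet replicate 1 in 78. The 2 genes with the higher mean on the high-fat diet were Atpif1, an inhibitor of the ATP synthase (0.40 ± 0.15, adjusted p = 0.0994), and Atp5g1 (0.17 ± 0.15, adjusted p = 0.446).

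The rest of the organelle was lower in parallel. Of 77 genes of the mitochondrial ribosome, which translates the few proteins that mitochondria encode themselves, 75 were lower, 32 fell and 22 had groups that did not overlap, with a median of -0.39. Mrpl55 (GRCm38 chromosome 11, 59202486 to 59206134) was at 567, 686, 963 and 904 on control and 516, 453, 456 and 467 on high-fat diet (-0.69 ± 0.13, adjusted p = 0.0167). Its 4 high-fat libraries were close together, and the groups did not overlap. Of 28 import and cristae genes 15 fell (median -0.50), among them the prohibitin Phb (-0.59 ± 0.13) and the import genes Timm13 (-0.62 ± 0.14), Timm22 (-0.50 ± 0.12) and Timm21 (-0.43 ± 0.11). In the citric acid cycle 6 of 16 genes fell (median -0.75). Pcx, which makes the oxaloacetate needed for citrate export, measured 47500, 70010, 76700 and 79530 against 42410, 31920, 40320 and 30880 without overlap (-0.90 ± 0.17, adjusted p = 0.0149), and the citrate synthase Cs fell with overlap (-0.74 ± 0.20, adjusted p = 0.04). Coq7, an enzyme of coenzyme Q synthesis, fell (-0.87 ± 0.16, adjusted p = 0.0149) and the other 12 genes of that list did not pass. Branched-chain amino acid breakdown, a carbon source for adipocyte fat, had 3 falls in 24 genes: Mcee (-0.56 ± 0.11), the kinase Bckdk (-0.48 ± 0.11) and Acad8 (-0.40 ± 0.10).

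Fatty acid oxidation and thermogenic genes had large median differences and few calls. Of 30 oxidation genes 2 fell (6.67% against 5.17% of all genes), Etfb (-0.68 ± 0.19) and Echs1 (-0.50 ± 0.14), with a median of -0.64. High-fat replicate 1 exceeded control-diet replicate 1 in 28 of the 30. Of 22 thermogenic and beige markers 2 fell, Kcnk3 (-1.20 ± 0.34) and Cpn2 (-2.17 ± 0.58), with a median of -1.18. Ucp1, the uncoupling protein of beige fat, was at 207, 4843, 44770 and 14600 on control and 6053, 14.8, 158 and 30.1 on high-fat diet. The spread within each diet spanned more than the difference between them, and control-diet replicate 1 was lower than high-fat replicate 1 (-5.10 ± 1.96, adjusted p = 0.101). Among 19 mitochondrial regulators the nuclear receptor Esrrg fell (-2.46 ± 0.57, adjusted p = 0.0299). Its relative Esrra (-0.82 ± 0.25, adjusted p = 0.0507), Tfam, which packages and transcribes mitochondrial DNA (-0.34 ± 0.11, adjusted p = 0.0599), and Ppargc1b, a coactivator (-0.90 ± 0.30, adjusted p = 0.0715), did not pass. Control-diet replicate 3 was the highest control-diet library in 15 of the 22 thermogenic genes. Without it and high-fat replicate 2 the median of complexes I to V was -0.51 with 0 falls. Without both libraries numbered 1 it was -0.97 with 87 falls, and in a fit with the muscle score as covariate it was -0.61 with 0 falls.

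**Figure D3:**
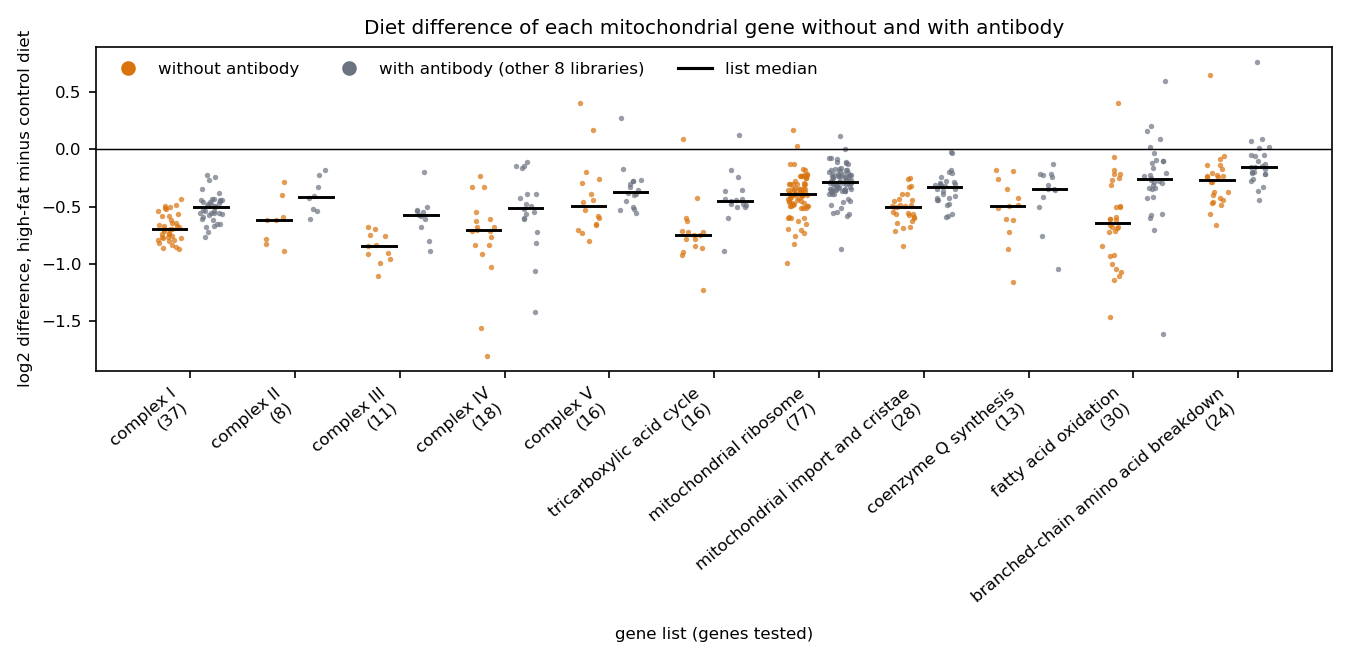
Each point is 1 gene, with the log2 difference between high-fat and control diet in the untreated libraries (orange) and in the separate antibody libraries (grey), grouped by mitochondrial list with the number of genes tested and a bar at the list median. Nearly all points of complexes I to V lie below 0 in both sets, with medians by complex from -0.84 to -0.49 without antibody.

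With antibody 89 of the 90 genes of complexes I to V had the lower mean on the high-fat diet, with a median of -0.50 and 0 calls. The mitochondrial ribosome had a median of -0.28 there, fatty acid oxidation -0.26 and the thermogenic markers -0.83. The muscle score, a mean log2 value of muscle genes, was 10.9 to 12.23 in the control-diet antibody libraries. In the high-fat antibody libraries it was 2.918 to 8.267. Whether muscle RNA accounts for part of the diet differences with antibody, in these or other lists, was not tested. Of 13 listed transcripts of the mitochondrial genome 0 were found in the deposited table, so they were not analysed here.

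Matrix genes were higher on the high-fat diet in nearly every list, by modest amounts. Collagens I, III and V form the fibrils of the matrix, collagen IV and laminins the sheet around each adipocyte, and collagen VI is abundant in the matrix of fat. Of 149 genes of matrix proteins, crosslinking enzymes and proteases 141 had the higher mean on the high-fat diet, 16 rose (10.7% against 2.98% of all genes), and 13 were higher without overlap (4.54% of all genes). The median was 0.42. The 3 chains of collagen VI rose together. Col6a3 (GRCm38 chromosome 1, 90765923 to 90843971) measured 22890, 16840, 9359 and 13630 on control and 23110, 27350, 29560 and 26850 on high-fat diet. Control-diet replicate 1 came close to high-fat replicate 1, and the groups did not overlap (0.84 ± 0.20, adjusted p = 0.031). Col6a2 was at 27520, 18560, 10090 and 16500 against 29990, 28930, 33920 and 30730 (0.85 ± 0.23, adjusted p = 0.04), and Col6a1 differed by 0.81 ± 0.23, adjusted p = 0.0438. No fibrillar collagen passed, with 0 of 8 by limma and 3 at an unadjusted p under 0.05 in the 8 untreated libraries. Col1a1 was at 99710, 57890, 38910 and 70920 on control and 84710, 73880, 118100 and 88780 on high-fat diet, and the value of control-diet replicate 1 was above 3 of the 4 high-fat libraries (0.51 ± 0.25, adjusted p = 0.179). Col3a1 was at 0.60 ± 0.26, adjusted p = 0.13. All 18 basement membrane genes had the higher mean and 0 passed by limma, 6 having an unadjusted p under 0.05 in the 8 untreated libraries. Hspg2, the gene of perlecan, had groups that did not overlap (0.62 ± 0.19, adjusted p = 0.0552).

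Enzymes that process collagen were higher in 22 of 22 genes and 3 rose. Lox, the lysyl oxidase that crosslinks collagen, measured 3963, 2842, 3004 and 2445 on control and 4049, 4627, 5587 and 4808 on high-fat diet (0.65 ± 0.14, adjusted p = 0.0273). Adamts14, which trims procollagen, was at 229, 174, 124 and 174 against 270.4, 284, 318 and 304 (0.77 ± 0.15, adjusted p = 0.0167). Neither gene had overlapping groups, and in both the highest control-diet library was replicate 1. The prolyl hydroxylase subunit P4ha2 rose as well (0.53 ± 0.14). Of 38 glycoprotein and matricellular genes 5 rose: Thbs2 (adjusted p = 0.0266), Ccn1 (1.29 ± 0.30), Ccn5 (0.85 ± 0.23), Cthrc1 (2.03 ± 0.58) and Fbln2 (0.61 ± 0.17). Ccn1, a matricellular protein induced by stretch and growth factors, was at 405, 434, 313 and 371 against 547, 938, 910 and 1593. Its high-fat libraries were widely spread, and all lay above the control-diet libraries. Thbs2, a thrombospondin that binds proteases, was at 3151, 1955, 1583 and 1482 against 2788, 4021, 4460 and 4589, with overlap of the replicates numbered 1. Among 22 proteoglycan genes Prelp (0.92 ± 0.22), Bgn (0.49 ± 0.14) and the hyaluronan receptor Cd44 (0.73 ± 0.20) rose. Of 30 proteases and inhibitors Plaur, the urokinase receptor (1.26 ± 0.24), and Adam8 (1.21 ± 0.35) rose.

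Signals and cell attachments to the matrix went the same way. Of 31 genes of TGF-beta, BMP and activin signalling 3 rose. Smad3, which carries the TGF-beta signal to the nucleus, measured 908, 741, 921 and 729 on control and 1140, 1375, 1264 and 1183 on high-fat diet. All high-fat libraries lay above all control-diet libraries (0.59 ± 0.11, adjusted p = 0.0167). With antibody Smad3 differed by 0.035 ± 0.11. Tgfb3, a TGF-beta ligand, rose with overlapping groups (0.70 ± 0.20). Of 42 integrin and actin cytoskeleton genes 9 rose (21.4%), among them Tpm4 (0.70 ± 0.15), Vim (0.60 ± 0.14), Anxa2 (0.71 ± 0.18), Itga5 (0.76 ± 0.20), Itgb1 (0.27 ± 0.073) and Flna (0.82 ± 0.23). Tpm4, a tropomyosin of non-muscle cells, was at 4295, 3509, 2681 and 3095 against 4773, 5075, 6121 and 5954, without overlap.

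Progenitor, macrophage and vessel markers differed in the same direction. Of 19 progenitor markers 18 had the higher mean and only Icam1 rose (0.55 ± 0.13); their summed level was 48480 to 96100 on the control diet, highest in replicate 1, and 66980 to 86820 on the high-fat diet, with none of them at 0. Pdgfra, the defining receptor of these cells, was at 3818, 2837, 2480 and 2370 and 2774, 3687, 4648 and 4293 (0.42 ± 0.16, adjusted p = 0.0964). Macrophage markers summed to 46110 to 94930 and 60760 to 115300. Pericyte and smooth muscle markers summed to 27610 to 35340 and 31120 to 47890, and 3 of 16 rose, Tagln (0.53 ± 0.14), Smtn (0.45 ± 0.13) and Mylk (0.53 ± 0.15). High-fat replicate 2, which carried muscle RNA, was the highest high-fat library in 9 of the 16. Their median was 0.24, against 0.0009 with library weights (2 rises) and 0.10 with the muscle score as covariate (0 rises). Whether progenitors, macrophages or vessel cells account for part of the matrix difference was not tested. Without control-diet replicate 3 and high-fat replicate 2 the median of the 149 matrix genes was 0.28 with 0 rises, and without both libraries numbered 1 it was 0.70 with 95 rises. In the fit with the muscle score as covariate it was 0.37 with 2 rises. With antibody the same genes had a median diet difference of 0.17, with 126 of 149 higher.

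Genes of dividing cells were higher on the high-fat diet, and in most mitotic genes high-fat replicate 1 was above control-diet replicate 1. Entry into division is set by cyclins and their kinases, replication doubles the DNA, and spindle and kinetochore proteins part the chromosomes in mitosis. Of 173 genes of dividing cells 20 rose (11.6% against 2.98% of all genes) and 3 fell, and 37 were higher without overlap (4.54% of all genes). By list, 11 of 62 mitotic spindle genes rose (median 0.49) and 7 of 32 cyclin and regulator genes (0.30), against 0 of 39 replication genes (0.12) by limma and 2 of 22 nucleotide supply genes (-0.04). Of the replication genes 5 were higher at an unadjusted p under 0.05 in the 8 untreated libraries. A difference between these lists was not tested.

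Mki67, the marker of proliferating cells (GRCm38 chromosome 7, 135689784 to 135716361), measured 209, 199.5, 163 and 211 on control and 396, 264, 362 and 334 on high-fat diet. High-fat replicate 1 was the highest of the 8 and the groups did not overlap (0.78 ± 0.18, adjusted p = 0.0304). Kif23, a motor of the dividing cell's midbody, was at 85.6, 88.6, 58.5 and 72.2 against 126, 118, 135 and 162 (0.83 ± 0.19, adjusted p = 0.0301). Foxm1, the transcription factor of the G2 to M program, measured 63.7, 58.7, 42.4 and 55.4 on control and 111, 76.7, 84.2 and 103 on high-fat diet (0.76 ± 0.18, adjusted p = 0.0334). In these 3 genes the lowest control-diet library was replicate 3 and no high-fat library reached the control-diet range. The mitotic motor Kif20a (0.76 ± 0.20), Tpx2 (0.80 ± 0.23), Ckap2 (1.12 ± 0.28), Cenpe (0.96 ± 0.28), Aurkb (0.80 ± 0.24), Incenp (0.53 ± 0.13) and Spc25 (0.60 ± 0.17) rose as well. The counts of rises also hold the checkpoint kinase Bub1, at 8.5 to 14.9 on control and 20.8 to 31.4 on high-fat diet, and Sgo1, a guardian of chromatid cohesion. Both reached the low-value limit of 24.49 only in high-fat libraries, with or without antibody, so these 2 of the 20 rises give no support. Levels of other members were low too. With only genes above 5 times that limit in 4 libraries, 4 mitotic spindle genes rose and the median over all lists of dividing cells was 0.096 against 0.26. Top2a had groups that did not overlap and missed the threshold (0.67 ± 0.20, adjusted p = 0.051).

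The cyclins Ccna2 (0.81 ± 0.22), Ccnb1 (0.85 ± 0.24) and Ccnd1 (0.49 ± 0.14) rose, with the kinase Plk1 (0.88 ± 0.26), the phosphatase Cdc25b (0.47 ± 0.13) and Pkmyt1, a kinase that restrains mitotic entry (0.51 ± 0.12). Rrm2, the subunit that limits deoxynucleotide supply, was at 71.4, 56.9, 39.6 and 60.4 on control and 139.7, 84.3, 97.9 and 100.2 on high-fat diet, without overlap (0.88 ± 0.24, adjusted p = 0.043), and the thymidine kinase Tk1 rose as well (0.92 ± 0.26, adjusted p = 0.0447). The 3 genes that fell were the kinase inhibitor Cdkn2c (-0.45 ± 0.13), the securin Pttg1 (-0.34 ± 0.094) and the polymerase subunit Pold2 (-0.25 ± 0.07). Markers do not show which cells were dividing. Lymph node markers summed to 2296 to 8017 on the control diet, highest in replicate 1, and 4493 to 9019 on the high-fat diet. T, NK and B cell markers summed to 7187 to 9953 and 5980 to 10040. A part of such cells in these differences was not tested. High-fat replicate 1 exceeded control-diet replicate 1 in 53 of 62 mitotic spindle genes, against 50.1% of all genes. The same order held in 19 of 23 endothelial markers and 13 of 16 pericyte and smooth muscle markers, and in 2 of 23 macrophage markers and 75 of 222 genes of the matrix lists. Without control-diet replicate 3 and high-fat replicate 2 the mitotic spindle median was 0.51 with 0 rises, and without both libraries numbered 1 it was 0.56 with 19 rises. With a pseudocount of 100 it was 0.18 with 7 rises, and with the muscle score as covariate 0.52 with 1 rise. With antibody it was 0.41, with 58 of 62 genes higher and Mki67 at 0.68 ± 0.18.

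**Figure D4:**
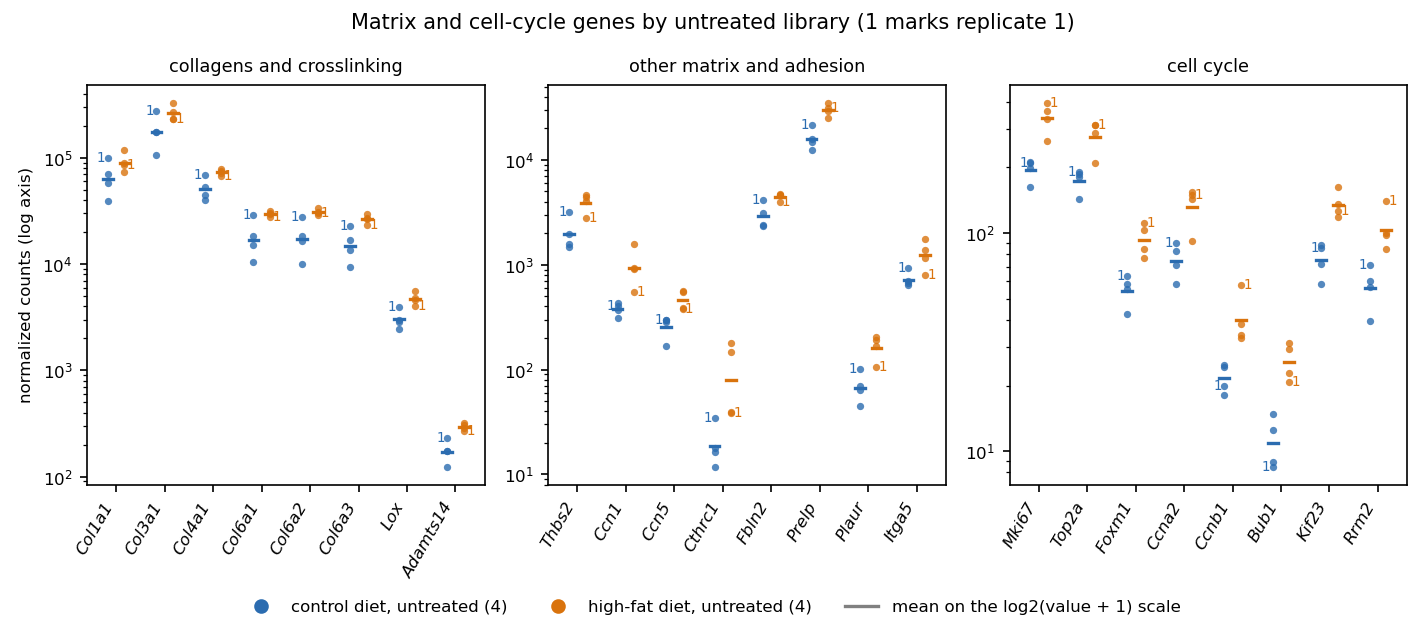
Normalized counts on a log axis for collagen and crosslinking genes, other matrix and adhesion genes and cell-cycle genes in the 4 control-diet (blue) and 4 high-fat (orange) untreated libraries, with a bar at the mean on the log2(value + 1) scale and replicate 1 of each diet marked 1. Replicate 1 of the control diet reaches the high-fat range in Col1a1 and Col3a1 and stays below all high-fat libraries in Mki67 and Foxm1.

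Beyond these programs the immediate early genes, which answer growth factors and stress within minutes, were higher in 30 of 37 genes, and 5 rose and 1 fell (median 0.43). Fos (GRCm38 chromosome 12, 85473890 to 85477273) measured 101, 98.5, 86.2 and 84.1 on control and 212, 189, 663 and 559 on high-fat diet. The control-diet libraries were within a narrow range, all high-fat libraries lay above them, and replicates 3 and 4 were the highest (1.91 ± 0.35, adjusted p = 0.0149). Nr4a1, an orphan nuclear receptor, was at 114, 166, 115 and 109.8 against 137, 405, 458 and 1085, with high-fat replicate 1 inside the control-diet range (1.71 ± 0.42, adjusted p = 0.0342). Arc (1.84 ± 0.35), Rgs1 (1.85 ± 0.41) and Zfp36 (0.56 ± 0.14) rose without overlap, and the phosphatase Dusp4 fell (-1.64 ± 0.41). Arc and Rgs1 were below the low-value limit of 24.49 in all 4 control-diet libraries. Rgs1 reached that limit only in high-fat libraries, so this 1 of the 5 rises gives no support. High-fat replicate 4 was the highest high-fat library in 26 of the 37 genes. With antibody the list median was -0.06, and Nr4a1 differed in the opposite direction there, by -1.13 ± 0.42, with the high-fat libraries wholly below the control-diet libraries. The difference between both diet effects did not pass for Nr4a1 (interaction adjusted p = 0.264, limma).

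A few chemokine and acute phase genes rose. Of 32 chemokines and cytokines 4 rose, Ccl7 (2.02 ± 0.48), Ccl11 (0.69 ± 0.18), Il1rl1 (0.98 ± 0.26) and Osmr (0.41 ± 0.12). Ccl7, which attracts monocytes, was at 66.6, 51.4, 54.1 and 47.5 on control and 92.4, 121, 318 and 698 on high-fat diet. The groups did not overlap, and high-fat replicates 3 and 4 were far above the others. Of 21 acute phase and metallothionein genes 3 rose and 3 fell. Ptx3, a pentraxin, measured 26.8, 14.4, 10.3 and 7.89 against 18.9, 84.3, 181 and 144, and Mt2, a metallothionein, 470.3, 333, 568 and 583 against 507, 1794, 6214 and 4930. In both, high-fat replicate 1 was at the control-diet level and the other 3 high-fat libraries lay above every control-diet library (differences 2.51 ± 0.61 and 2.27 ± 0.59, adjusted p = 0.0338 and 0.039). Lbp, which binds bacterial lipopolysaccharide, rose by 1.21 ± 0.32, with control-diet replicate 1 inside the high-fat range. The acid glycoprotein gene Orm3 fell. It was at 232, 279.6, 590 and 367 on control and 132, 136, 118 and 162 on high-fat diet without overlap (-1.34 ± 0.21, adjusted p = 0.0136), and it was also the single gene past the threshold between the diets with antibody (-1.61 ± 0.21, adjusted p = 0.0254). Its close copy Orm2 (-0.97 ± 0.26), with which it may share reads, and the ceruloplasmin gene Cp (-0.33 ± 0.10) fell as well.

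All 23 macrophage markers had the higher mean on the high-fat diet, with a median of 0.52, and Cd68 (0.76 ± 0.20) and the scavenger receptor Msr1 (1.08 ± 0.32) rose. Control-diet replicate 1 was the highest control-diet library in 22 of the 23 and high-fat replicate 1 the lowest high-fat library in 21. With antibody the median was 0.06. Of 19 monocyte, dendritic cell and granulocyte markers 15 had the higher mean and 4 rose, 3 of them genes of proteases that mast cells store. The carboxypeptidase Cpa3 was at 380, 389, 338 and 383 against 425, 624, 543 and 536 without overlap (0.50 ± 0.11, adjusted p = 0.0263), and the tryptase Tpsb2 (0.54 ± 0.13) and the chymase Cma1 (0.62 ± 0.17) rose as well. Kit, the receptor that mast cells need, was lower without passing (-0.64 ± 0.23, adjusted p = 0.0822). Among 33 lysosome and lipid-associated macrophage genes Cd9 rose (0.58 ± 0.14), and Fabp5 (-0.97 ± 0.24) and Ctsd (-0.56 ± 0.14) fell. These counts are near the shares of all genes: 3.03% rose against 2.98%, and 6.06% fell against 5.17%. None of the genes tested for complement (22), interferon response (43), class II antigen presentation (9) or T, NK and B cells (14) passed by limma. In the 8 untreated libraries alone 3, 2, 0 and 1 of them had an unadjusted p under 0.05.

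Proteasome genes, whose products degrade tagged proteins, were lower in 31 of 31 members, and 13 fell (41.9%), with a median of -0.30. Differences ran from -0.62 to -0.090. Psmb2 (GRCm38 chromosome 4, 126677630 to 126709714) measured 2217, 2291, 2650 and 2608 on control and 1944, 1770, 1989 and 1980 on high-fat diet (-0.34 ± 0.069, adjusted p = 0.0223). Psmb1 was at 3237, 3564, 3644 and 3865 against 2879, 2749, 2960 and 3008 (-0.30 ± 0.064, adjusted p = 0.0245), and Psmb5, a catalytic subunit, differed by -0.62 ± 0.14, adjusted p = 0.0295. Of the 31 genes 11 had groups that did not overlap, and with antibody all 31 were lower (median -0.25). Cytosolic ribosomal proteins, measured as a large complex of another kind, had a median of 0.01 with 0 of 65 passing by limma and 0 at an unadjusted p under 0.05 in the 8 untreated libraries. Without control-diet replicate 3 and high-fat replicate 2 the proteasome median was -0.22 with 0 falls, and in a fit with the muscle score as covariate it was -0.26 with 0 falls.

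Antioxidant genes fell in 6 of 36 members. Gsta4, a glutathione transferase that clears lipid peroxidation products, was at 689.6, 928, 1236 and 1055 on control and 575, 459, 521 and 562 on high-fat diet, without overlap (-0.86 ± 0.15, adjusted p = 0.0136). The others were the mitochondrial thioredoxin Txn2 (-0.56 ± 0.12), Gpx4, which reduces lipid peroxides (-0.74 ± 0.17), Gstm5 (-0.37 ± 0.094), Txnrd2 (-0.69 ± 0.18) and Gsta3 (-0.80 ± 0.21). Amino acid and one-carbon genes rose in 5 of 29. Aldh1l2, a mitochondrial folate enzyme, was at 121, 89.3, 68.3 and 98.9 against 180.3, 171, 264 and 274 (1.23 ± 0.25, adjusted p = 0.0223), and Mat2a, which makes the methyl donor S-adenosylmethionine, differed by 0.52 ± 0.12, adjusted p = 0.0323. The amino acid transporters Slc38a1 (0.60 ± 0.16) and Slc7a10 (0.51 ± 0.15) rose too, and Psph, the last enzyme of serine synthesis, fell (-0.88 ± 0.19, adjusted p = 0.0263). Of 30 eicosanoid and retinoid genes 20 had the higher mean (median 0.22), 0 rose and 2 fell (6.67% against 5.17% of all genes). Ptges, which makes prostaglandin E2, fell from 2559, 2911, 3016 and 3451 on the control diet to 1518, 1224, 1919 and 2036 on the high-fat diet (-0.85 ± 0.13, adjusted p = 0.0136), and Aldh1a7 fell by the same test (-0.59 ± 0.15).

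Imprinted growth genes rose in 3 of 21 members. Peg3 measured 2857, 3648, 2139 and 1753 on control and 6511, 4910, 4045 and 4111 on high-fat diet, and Mest, a gene tied to fat expansion, 3581, 1419, 847 and 1264 against 9422, 8631, 3803 and 4198. Neither had overlapping groups, and high-fat replicate 1 was the highest of the 8 libraries in both (differences 0.94 ± 0.20 and 1.97 ± 0.56, adjusted p = 0.0242 and 0.0455). Nnat, the third of them, was at 36920, 31230, 11310 and 17800 against 52960, 48420, 40500 and 51240 (1.13 ± 0.29, adjusted p = 0.0379). With antibody Peg3 differed by 1.11 ± 0.20 and Mest by 1.76 ± 0.56. Adipocyte identity genes gave few calls: of 29 adipokine and mature adipocyte genes Nnat and Sncg (adjusted p = 0.0426) rose. Lep, the leptin gene, was at 16270, 7059, 14860 and 15580 and 19730, 37510, 14340 and 24520 (0.82 ± 0.37, adjusted p = 0.15), with high-fat replicate 3 inside the control-diet range. Pparg, the master regulator of adipocytes, was at -0.53 ± 0.25, adjusted p = 0.167. Of 9 PDGF ligand and receptor genes 0 passed by limma and 0 had an unadjusted p under 0.05 in the 8 untreated libraries. Pdgfc, the ligand gene that gives the series its target, was at 909.5, 568, 426 and 504 and 612, 726, 746 and 728 (0.28 ± 0.18, adjusted p = 0.305).

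**Figure D5:**
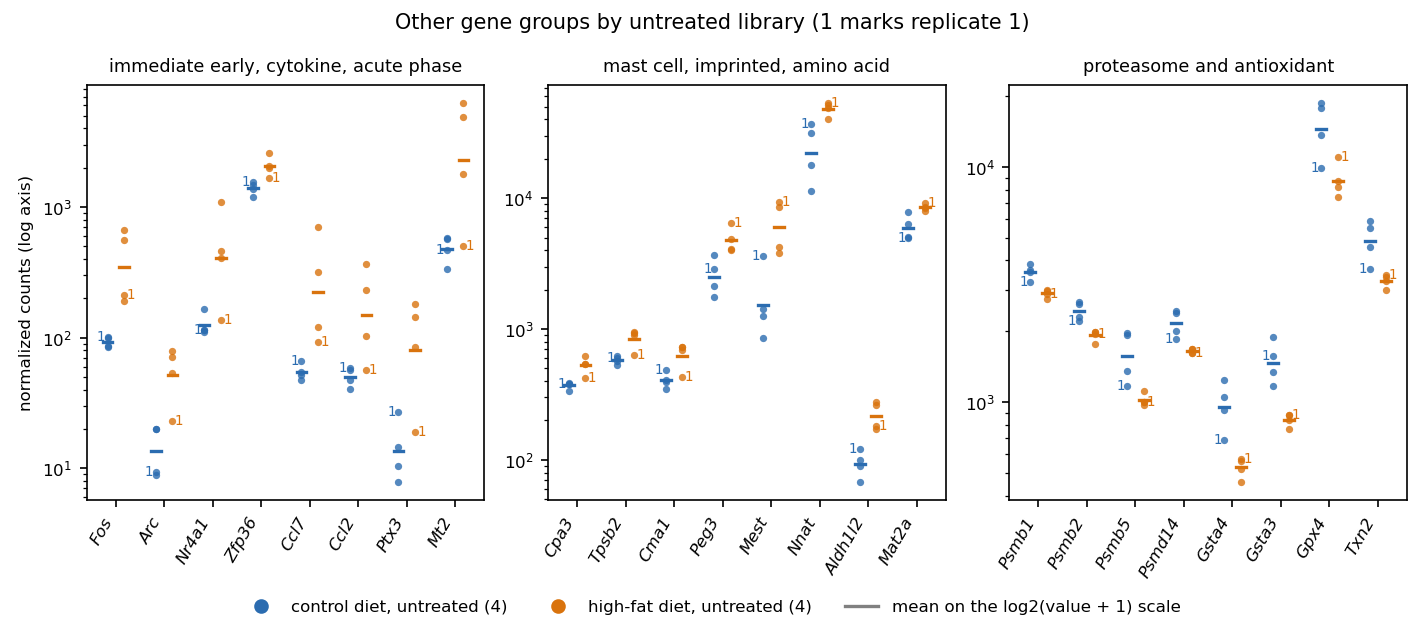
Normalized counts on a log axis for immediate early, cytokine and acute phase genes, mast cell, imprinted and amino acid genes, and proteasome and antioxidant genes in the 4 control-diet (blue) and 4 high-fat (orange) untreated libraries, with a bar at the mean on the log2(value + 1) scale and replicate 1 of each diet marked 1. Fos, Peg3 and Psmb2 show no overlap, while high-fat replicate 1 lies at the control-diet level in Mt2 and Ptx3.

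By size, the largest rises and falls outside these groups named other genes. Synpo2, an actin-binding protein (GRCm38 chromosome 3, 123076519 to 123236149), measured 3718, 2540, 2245 and 2252 on control and 7784, 11060, 5839 and 8591 on high-fat diet. Slc2a3, a glucose transporter with high affinity (GRCm38 chromosome 6, 122727809 to 122801640), was at 178, 162, 149.7 and 138 against 297, 553, 481 and 614. Both had groups far apart, with high-fat replicate 1 above every control-diet library (differences 1.62 ± 0.26 and 1.58 ± 0.25, adjusted p = 0.0136 each). Slc2a3 thus went opposite to Slc2a4 and Slc2a5, and with antibody it differed by 0.25 ± 0.25 (interaction adjusted p = 0.273). Tfpi2 (1.34 ± 0.24), Endou (1.30 ± 0.30), Tph2 (1.95 ± 0.50), Bpifb6 (1.91 ± 0.57) and Ms4a6d (1.40 ± 0.41) were the other large rises. Among the falls, Tmem79 was at 306, 615, 1588 and 1580 against 297, 196, 168 and 129, the groups being separated by the narrow gap between the replicates numbered 1 (-2.13 ± 0.46, adjusted p = 0.0264). Angptl8, a feeding-induced inhibitor of lipoprotein lipase (-2.28 ± 0.61), the sorting receptor Sorcs2 (-2.78 ± 0.71), Ttc25 (-2.80 ± 0.69), Cxadr (-2.69 ± 0.77), Slc25a48 (-2.66 ± 0.66), Hephl1 (-2.37 ± 0.58) and the soluble adenylyl cyclase Adcy10 (-2.34 ± 0.52) fell.

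Over all genes, 1105 of the 1157 that passed without antibody had a difference of the same sign with antibody. Of the 1157, 1 also passed with antibody in the same direction. The share of all tested genes with the same sign in both sets was not computed, so the agreement in sign has no background beside it. Clock genes differed between the libraries. The mean log2 value of Dbp, Tef, Per3, Ciart and Nr1d2 less that of Arntl, Npas2 and Clock was 0.45, 0.94, 2.83 and 2.47 in control-diet replicates 1 to 4, 2.49, 1.99, 1.04 and 1.46 in high-fat replicates 1 to 4 and 2.93 to 4.19 in the antibody libraries. With that score as a covariate 2535 genes passed. In that fit the median of complexes I to V was -0.70 with 82 falls and that of fatty acid synthesis -1.36 with 9 falls. The 149 matrix genes had a median of 0.43 with 47 rises. The part of the clock score in the diet difference was not tested further.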

How the data were processed

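The members, gene lists and tests were chosen with earlier results of these data known. The table of normalized counts was deposited by the authors as one signal value per gene and library. The scaling behind it and the earlier depth are unstated in the sources used here, and its values do not resolve into whole reads. The tools listed, per the submitters' processing notes, are STAR 2.7.0e, fastp 0.20.1, limma 3.42.2, Subread 1.6.2 and featureCounts, with the mouse build mm10 (GRCm38). Their roles and order are not stated. Libraries were poly-A selected and strand-specific, per the labels' protocols.

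Of 16091 genes, 14189 with at least 24.49 normalized counts in 4 libraries were tested and 1902 were left out. Values were taken as log2(value + 1), and limma 3.58.1 in R 4.3.3 fitted 4 group means to all 16 libraries with a variance trend and 12 residual degrees of freedom. p-values were adjusted by Benjamini-Hochberg over all genes tested. The fit was tested on simulated data. An exact permutation test of 4 against 4 cannot go below p = 0.0286. Of 1736 listed symbols in 71 lists, 1578 were tested. Named genes are the 6 with the smallest p in each list, the 15 largest changes each way and key genes of each pathway. Further members that passed were named to complete short lists and were chosen after their values were seen. Library scores for muscle and clock genes are mean log2 values. Same-numbered libraries of the 2 untreated groups correlated at -0.54 to 0.49 in their deviations, so the numbers were not taken as pairs. Promoter windows are from RefSeq on GRCm38.p6. A few listed genes enter the counts and are not reported here by name.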

Additional observations from a re-analysis of the deposited data

Results flagged for a closer look

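Within each untreated group the highest or lowest library was checked against the other 3, by its gap to the nearest of them as a share of the group's range, in 530 groups of values. The gap share exceeded Dixon's critical value for 4 samples in 32 (6.04%), and chance gives about 1 in 20. Gap shares are given in parentheses. High-fat replicate 1 stood apart as the highest of its group in Cdkn2c (0.949), Cs (0.858), Cxadr (0.904), Pdha1 (0.891), Pygl (0.845), Timm21 (0.921), Txnrd2 (0.963), the mean of desaturases and elongases (0.865), the mean of tricarboxylic acid cycle (0.854) and the mean of coenzyme Q synthesis (0.891). High-fat replicate 1 stood apart as the lowest of its group in Adam8 (0.867), Cma1 (0.897), Fbln2 (0.891), Orm2 (0.898), Pdgfc (0.864) and Tpsb2 (0.868). Control-diet replicate 3 stood apart as the lowest of its group in Ccn5 (0.93), Cpa3 (0.833), Top2a (0.831) and the mean of ribosomal proteins (0.897). Control-diet replicate 1 stood apart as the highest of its group in Osmr (0.96), Tpx2 (0.889) and Vim (0.832). High-fat replicate 2 stood apart as the lowest of its group in Ccna2 (0.859) and the mean of oxidative stress and glutathione (0.955). Control-diet replicate 4 stood apart as the lowest of its group in Ckap2 (0.898). Control-diet replicate 3 stood apart as the highest of its group in Cp (0.835). Control-diet replicate 1 stood apart as the lowest of its group in Gpam (0.843). Control-diet replicate 2 stood apart as the lowest of its group in Lep (0.891). High-fat replicate 2 stood apart as the highest of its group in Lpin3 (0.964). Control-diet replicate 2 stood apart as the highest of its group in Nr4a1 (0.887). High-fat replicate 3 stood apart as the lowest of its group in Sncg (0.856).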

How the results depend on the processing

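Without antibody 1157 genes passed. The count was 0, with 0 in either direction, in the fit to the 8 untreated libraries and without control-diet replicate 3 and high-fat replicate 2; in the latter fit 298 passed between the diets with antibody. No variance trend gave 726 (277 higher, 449 lower), library weights 4380 (2242 higher, 2138 lower; 1099 with antibody), the muscle score as a covariate 106 (35 higher, 71 lower; 0 with antibody) and the clock score 2535 (1073 higher, 1462 lower). Without both libraries numbered 1 the counts were 4544 (2225 higher, 2319 lower), 392 with antibody and 327 for the interaction. Leaving out 1 library gave 0 to 4119 genes (0 to 1968 higher, 0 to 2151 lower), 0 to 239 with antibody and 0 to 1 for the interaction; the count was 4119 without control-diet replicate 1, 338 without its replicate 2, 93 without 3 and 0 without 4. Leaving out high-fat replicates 1 to 4 in turn gave 1953, 117, 82 and 0. Pseudocount 100 gave 0 genes with antibody and no filter 2. With the replicate number as a block 0 genes passed without antibody in the 16 and in the 8 libraries, 0 with antibody and 1 for the interaction; the numbers do not pair the libraries. Small differences changed sign: with 1 library left out Adipoq ranged from -0.015 to 0.070, Adipoq was at -0.047 with library weights, and Atp5g1 at -0.045 without control-diet replicate 3 and high-fat replicate 2. Scd1 was at 3.55e-15 after quantile normalization, which gives the top gene of every library the same value.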

Other observations

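Other lists held few calls. Among 23 endothelial markers 19 had the higher mean on the high-fat diet and Egfl7, a protein secreted by endothelial cells, rose. It measured 1646, 1740, 1298 and 1800 on the control diet and 2247, 2161, 1937 and 2051 on the high-fat diet, without overlap (0.38 ± 0.11, adjusted p = 0.0444, limma). It shares exon sequence on the opposite strand with Agpat2, which fell. Among 24 hypoxia and angiogenic genes Ndrg1, a stress-induced gene, rose (0.55 ± 0.13, adjusted p = 0.0304) with groups apart at 3366, 2818, 2095 and 2427 and 3784, 3986, 3535 and 4186. Egln1, an oxygen-sensing hydroxylase, fell with overlap (-0.56 ± 0.16, adjusted p = 0.0468). In this list 4.17% rose against 2.98% of all genes, and 4.17% fell against 5.17%.

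Of 26 unfolded protein response genes 22 were higher, of 28 Wnt genes 24 and of 18 heat shock genes 13, and 0 of each passed by limma. At an unadjusted p under 0.05 in the 8 untreated libraries alone, 1, 3 and 3 of them were higher and 0 lower. Of 27 insulin and IGF signalling genes 14 were higher, 0 passed and 1 in each direction had such an unadjusted p. With antibody the unfolded protein response and heat shock lists had medians of -0.02 and -0.12 against 0.22 and 0.15 without it. The difference was not tested for a list.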
